A study of Mus musculus with 20 samples.

Results

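The genes described here encode the receptors for serotonin, noradrenaline and adrenaline, acetylcholine, and histamine in the mouse. They were taken by symbol from the first column of the count tables: the Htr1 to Htr7 genes, Adra1, Adra2 and Adrb genes, the muscarinic Chrm1 to Chrm5, the nicotinic subunits Chrna and Chrnb, and Hrh1 to Hrh4. This gave 45 of the 23413 gene names, the same in all 20 libraries: 14 serotonin, 9 adrenergic, 5 muscarinic, 13 nicotinic and 4 histamine receptor genes. The libraries came from the brain cortex of APOE4 knock-in mice, which carry the human APOE4 sequence in place of mouse Apoe in every cell. A control diet (CD) or a ketogenic diet (KD), which is very low in carbohydrate, was begun at 10 months of age and lasted 12 months, so that all mice were 22 months old, and they were housed singly. The 9 females were 5 on the CD and 4 on the KD, the 11 males 5 on the CD and 6 on the KD, and each mouse gave 1 library. No mouse with another APOE allele was in the set, so the APOE4 background was shared by all groups.

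The labels were checked first. CPM stands for counts scaled to a library total of 1000000. Xist, transcribed from the inactive X, was between 319 and 1364 CPM in the 9 females. Among males KD male E254 had 126 counts or 7.59 CPM, and no other exceeded 2.13 CPM. Ddx3y, on the Y chromosome, was at least 164 CPM in every male and at most 1.64 CPM in all females but CD female E228, which had 248 counts or 14.0 CPM. The mouse Apoe gene was between 1.33 and 3.34 CPM in all libraries. Library totals ran from 12207161 to 29109990 counts, and 3 counts correspond to 0.103 CPM in the deepest library. The numbers in the library titles fall into 2 runs of 10 libraries, E51 to E68 (series 1) and E207 to E265 (series 2). The series were defined from these numbers, and the study names no batch. Totals were 21015275 to 29109990 in series 1 and 12207161 to 17697342 in series 2, and every group has mice in both. Values by mouse are given below in a fixed order, which is E62, E67, E249, E265 and E228 for CD females, E61, E68, E207 and E227 for KD females, and E51, E58, E66, E251 and E264 for CD males.

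Most of these receptors pass through the cell membrane and act on a G protein. Those coupled to Gi lower cyclic AMP, those coupled to Gs raise it, and those coupled to Gq release calcium from internal stores. The nicotinic receptors and the Htr3 receptors are instead ion channels built of several subunits, which open within milliseconds. The transmitters reach the cortex on long fibres whose cell bodies lie elsewhere, serotonin from the raphe nuclei, noradrenaline from the locus coeruleus, histamine from the tuberomammillary nucleus and most acetylcholine from the basal forebrain, so the receptor genes are largely transcribed in other cells than the genes that make the transmitters.

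For 4 of the receptor genes with the smallest p in the comparison of KD and CD females, stretches of the promoter are shown, because these members are described together below. The sequences are from RefSeq (GRCm38.p6, the mm10 build), given 5′ to 3′ on the strand of the gene, upstream of the annotated start and free of any exon. Of the 45 genes, 33 had a promoter in that table. Capitals mark the motifs searched on both strands in the 250 bases before the start, which were the cAMP response element (TGACGTCA in its whole form, TGACG in its short form), the GC box (letters GGGCGG) and the core of RE1, the element bound by the neuronal repressor REST (GGACAGCGC).
Htr1b, chr9:81633833-81633932, minus strand: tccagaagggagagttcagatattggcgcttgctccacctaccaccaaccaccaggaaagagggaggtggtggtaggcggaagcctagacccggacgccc
Adra2b, chr2:127363079-127363178, plus strand: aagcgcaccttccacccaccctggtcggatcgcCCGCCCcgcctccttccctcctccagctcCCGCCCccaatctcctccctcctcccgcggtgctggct
Chrna5, chr9:54980780-54980879, plus strand: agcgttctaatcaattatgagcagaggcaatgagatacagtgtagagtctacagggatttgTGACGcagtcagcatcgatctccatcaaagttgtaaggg
Htr5a, chr5:27841697-27841796, plus strand: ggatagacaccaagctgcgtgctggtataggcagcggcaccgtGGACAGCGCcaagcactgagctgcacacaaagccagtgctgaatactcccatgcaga
The Htr1b stretch holds none of these letters, Adra2b has 2 GC boxes, Chrna5 has 1 short form of the cAMP response element and Htr5a has 1 RE1 core. The window of Adra2c, which holds none of the motifs, and a second promoter of Chrna5, with 4 GC boxes, are not printed because annotated exons lie in them. The whole cAMP response element was in 0 of the 33 genes, against 1.55% of all 32851 promoters. The short form was in 6 of 33 genes (Adra2a, Adrb1, Chrna5, Chrnb1, Chrnb2 and Htr7), or 14.6% of their 41 promoters against 17.8% of all, and it overlaps the whole element wherever that occurs. GC boxes were in 51.2% of the receptor promoters against 32.7% of all. The RE1 core was in Hrh3 and Htr5a, 4.88% of the receptor promoters against 0.304% of all. These matches are descriptions of letters in a window and were not tested as sites.

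Expression was compared between genes as CPM per kilobase of exon, averaged over the 20 libraries. Of the 45 genes, 41 had enough counts to be tested, 38 averaged at least 1 CPM and 17 at least 10 CPM. The muscarinic genes held 32.7% of the summed level per kilobase, the serotonin genes 29.2%, the adrenergic genes 16.3%, the nicotinic genes 14.3% and the histamine genes 7.58%. By coupling, Gi receptors held 36.8%, Gq receptors 36.2%, channel subunits 16.6% and Gs receptors 10.4%. Chrm4, the Gi-coupled muscarinic receptor, had the highest level at 20.4 ± 8.01 CPM per kilobase (SD, n = 20), followed by the Gq-coupled Chrm1 at 12.3 ± 2.53 and Chrm3 at 10.7 ± 3.49. The annotated models of Chrm4 (1440 bases) and Chrm5 (1599 bases) run only from start to stop codon. Whether this raised their level per kilobase was not tested, as the annotation used in counting is not stated. By CPM alone Chrm4 was the 7th of the 45 and Chrm1 the 1st, and the order of the groups turned. The serotonin genes then held 31.7% of the summed CPM, the muscarinic genes 30.1%, the nicotinic genes 18.4%, the adrenergic genes 13.1% and the histamine genes 6.69%. Gq receptors held 46.8%, Gi receptors 25.5%, channel subunits 19.4% and Gs receptors 8.26%. The levels of Chrm1 and Chrm3 lay within 1 SD of each other.

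**Figure D1:**
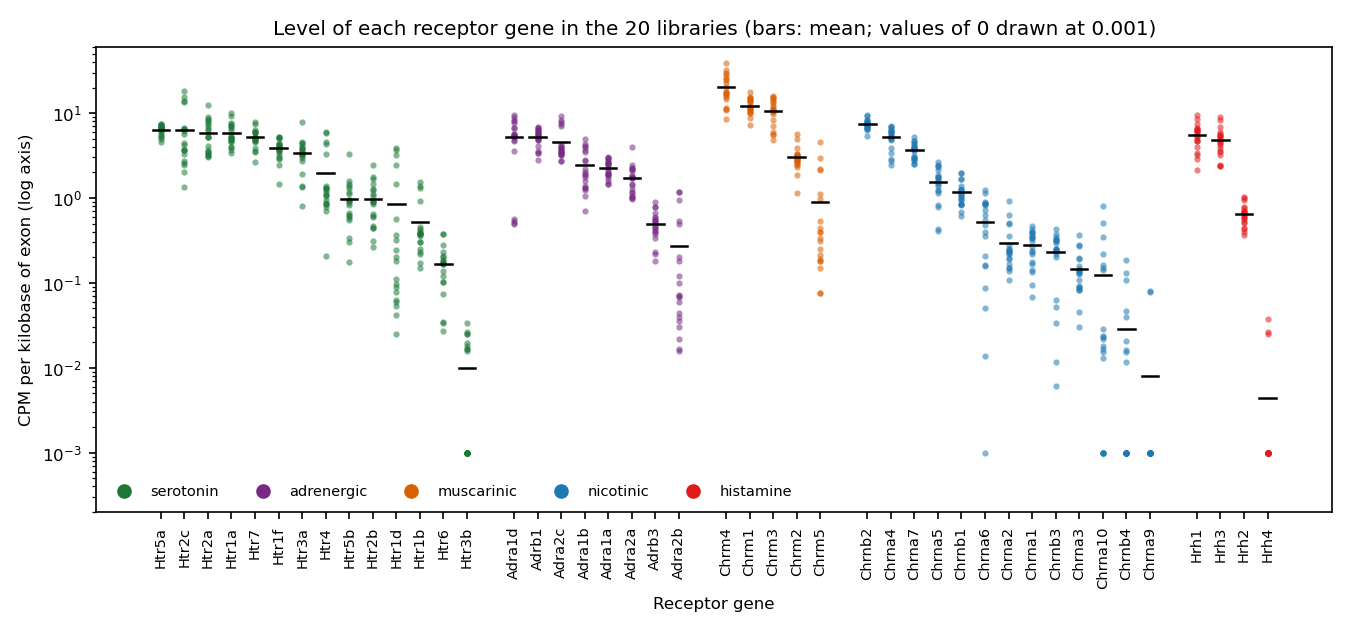
Level of 44 receptor genes in CPM per kilobase of exon on a log axis, 1 point per library (20 libraries) with the mean as a line, by family and in order of the mean; values of 0 are drawn at 0.001. Muscarinic Chrm4, Chrm1 and Chrm3 lead, and Htr3b, Chrna9, Chrnb4 and Hrh4 lie at the bottom, with many libraries at 0.

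Among the serotonin receptors, Htr5a (Gi), Htr2c (Gq), Htr2a (Gq, the receptor through which many hallucinogens act), Htr1a (Gi, also the autoreceptor of serotonin neurons) and Htr7 (Gs) lay close together at 6.38, 6.31, 5.82, 5.81 and 5.17 CPM per kilobase. Each of these means lay within 1 SD of the next in the order. Htr2c varied most of the 5, from 12.6 to 169 CPM, while Htr5a varied from 24.7 to 39.6 CPM. Htr1f at 3.85 and the channel subunit Htr3a at 3.37 CPM per kilobase came next, then Htr4 at 1.95, Htr5b at 0.980, Htr2b at 0.966, Htr1d at 0.860, Htr1b at 0.517 and Htr6 at 0.168. Htr3b, the second subunit of the serotonin-gated channel, had 9 counts over all libraries and was not tested.

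Of the adrenergic receptors, Adra1d (Gq), Adrb1 (Gs) and Adra2c (Gi) were at 5.20, 5.19 and 4.62 CPM per kilobase, with means within 1 SD of each other. By CPM alone the order turned, with Adra1a at 19.6, Adrb1 at 17.6, Adra2c at 15.9 and Adra1d, whose annotated model has 1899 bases, at 9.87. The following values are again per kilobase. Adra1b followed at 2.42, Adra1a at 2.25, Adra2a at 1.73, Adrb3 at 0.496 and Adra2b at 0.271, and all 9 were tested. Chrm2 (Gi) at 3.02 and Chrm5 (Gq) at 0.885 CPM per kilobase were the lower muscarinic genes. In the nicotinic family Chrnb2 led at 7.45 and Chrna4 followed at 5.16 CPM per kilobase. These 2 subunits form the main high-affinity nicotinic receptor of the brain. Chrna7, which forms channels on its own, was at 3.64, Chrna5 at 1.55 and Chrnb1, a subunit of the muscle receptor, at 1.16 CPM per kilobase. Chrna6 (0.524), Chrna2 (0.297), Chrna1 (0.276), Chrnb3 (0.228), Chrna3 (0.145) and Chrna10 (0.125 CPM per kilobase) were lower but tested. Chrnb4 with 45 counts and Chrna9 with 6 counts in all were not tested. Histamine receptors Hrh1 (Gq), the target of sedating antihistamines, and Hrh3 (Gi), the autoreceptor of histamine neurons, were at 5.49 and 4.81 CPM per kilobase, within 1 SD of each other, and Hrh2 (Gs) was at 0.648. Hrh4 had 3 counts and was not tested. Of the 45 genes, 10 share exonic bases with an annotated gene on the opposite strand, among them Htr1b, Chrnb2, Chrna10, Htr2b (with Psmd1) and Chrm2 (with 9330158H04Rik).

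Markers of the tissue were read beside the receptors, and several libraries stood apart. The 20 striatum markers, among them Drd1a, Adora2a and Penk, summed to 313, 359.9, 1296, 268 and 334 CPM in the CD females and 3000.3, 2738, 3526 and 378 CPM in the KD females. In CD males they summed to 308, 704, 387, 299 and 335 CPM, and in KD males to 293 to 4156 CPM (median 356). KD females E61, E68 and E207 and KD male E59 therefore stood far above the others, with CD female E249 between. Pde10a was the most abundant of these markers (247 CPM on average), while Isl1 was at 0 in 8 libraries and Six3 in 9. Against CD, 20 of 20 had a positive log2 fold change in each sex, with 15 at an unadjusted p under 0.05 in females and 1 in males.

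The 12 markers of cortical excitatory neurons, led by Slc17a7 and including Neurod6, were present in all libraries. They summed to 1220.3, 1287, 416, 924 and 1192 CPM in the CD females and 454, 425, 493 and 1004 CPM in the KD females. E249, E61, E68 and E207 had less than any of the other libraries, the lowest of which, KD male E254, had 853 CPM. In CD males the sum was 1005 to 1333 CPM and in KD males 853 to 1149 CPM. All 12 had a negative log2 fold change in each sex, 5 of them at an unadjusted p under 0.05 in females and 0 in males. Choroid plexus markers summed to 2444 CPM in KD male E59, of which Ttr alone gave most, and to at most 72.9 CPM elsewhere. The 7 hippocampus markers summed to 119 CPM in KD male E64 and to at most 24.3 CPM elsewhere. Oligodendrocyte markers were lowest in KD males E64 and E254 at 1349 and 1484 CPM, against 2331 to 4173 CPM in the rest. In males choroid plexus markers had a positive log2 fold change in 9 of 9 tested genes (7 at an unadjusted p under 0.05), hippocampus markers in 6 of 7 (2) and oligodendrocyte markers in 0 of 7 (1 lower at that level). In females these counts were 6 of 9 (0), 3 of 7 (1 lower) and 7 of 7 (0). Microglia markers had a positive log2 fold change in 10 of 10 genes in females (4 at an unadjusted p under 0.05), inhibitory neuron markers in 6 of 9 (3 higher and 2 lower at that level), astrocyte markers in 6 of 8 (1), thalamus markers in 5 of 5 (1), endothelium markers in 5 of 6 (0) and mural cell markers in 3 of 6 (0). Of the medial habenula markers 1 of 3 was positive (0 at that level), and the hypothalamus markers summed to 23.6 CPM in KD female E61 and at most 4.78 CPM elsewhere. In tissue libraries, fewer cells of a type and less RNA per cell cannot be told apart. The part of these markers in the receptor results below was not tested; for the receptors at an unadjusted p under 0.05 in females, values from a fit with the striatum score (the mean z-score of the 20 markers) as a covariate are given at the end.

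**Figure D2:**
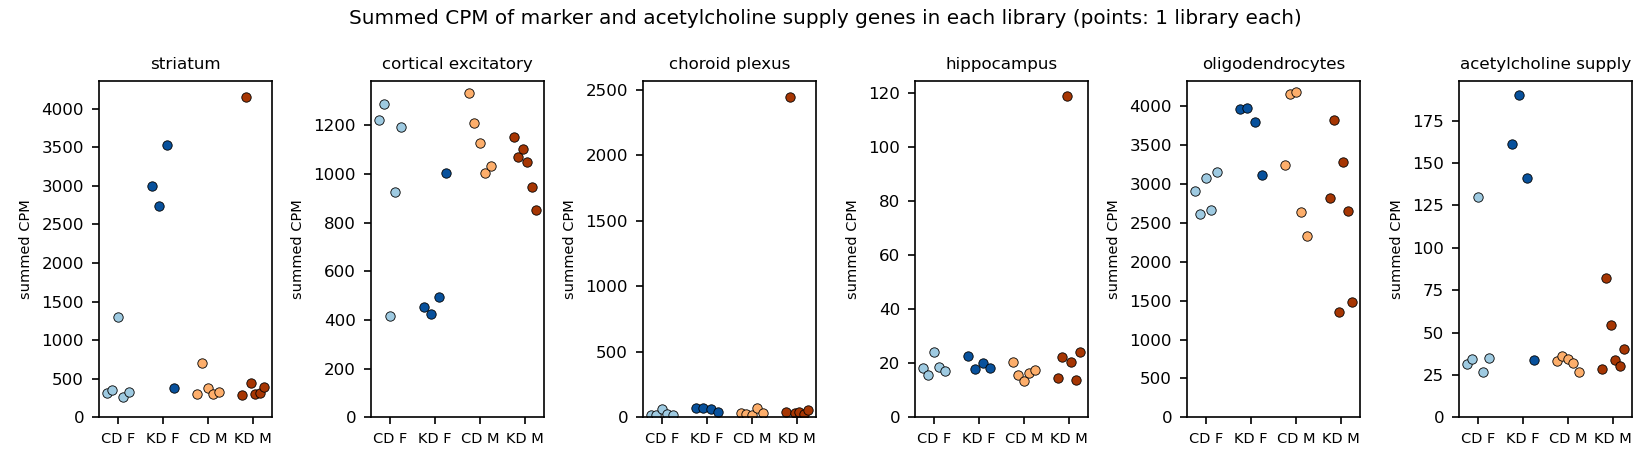
Summed CPM of striatum, cortical excitatory neuron, choroid plexus, hippocampus and oligodendrocyte markers and of the acetylcholine supply genes, 1 point per library, by diet (CD, KD) and sex (F, M). Striatum sums of 2738 CPM or more occur in 3 KD females and 1 KD male, and in those 3 females the cortical excitatory sum is at most 493 CPM.

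In KD females the Gi-coupled Htr1b, Adra2c, Adra2b and Htr1d, the Gs-coupled Htr4, the Gq-coupled Chrm5 and the nicotinic subunit Chrna2 had higher values than in CD females, with log2 fold changes between 0.92 and 2.57. Lower values were seen for the nicotinic subunits Chrna5, Chrnb3 and Chrna4, the Gq-coupled Chrm3, Adra1b and Adra1d, the Gi-coupled Htr5a and the Gs-coupled Hrh2 and Adrb1, with log2 fold changes between -2.11 and -0.39. In this comparison no receptor gene passed FDR 0.1 with a 1.5-fold change in edgeR's quasi-likelihood test, against 7 of the 15660 genes tested (0.0447%). DESeq2 called 4, Adra2c, Chrna5, Chrnb3 and Htr1b, and 253 (1.63%) of the 15568 genes it gave an adjusted p. Chrm5 was not among these genes in any comparison. At an unadjusted p under 0.05, 7 of the 41 receptors were higher on the KD, where 5.86% of all genes were (918 genes), and 9 were lower, where 5.5% of all genes were (862 genes). These are the 7 and the 9 genes just named. Of the 7, Adra2b and Chrm5 were kept for testing mainly through KD libraries, and no conclusion is drawn from their values. The median log2 fold change over the 41 was -0.08, beside 0.01 over all genes. In only 1 receptor, Adra2c, did the KD and CD females not overlap, and its KD females were the higher. Over all genes such a separation was seen in 1.7% with the KD higher and in 0.402% with the KD lower.

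In KD males Chrm5 had a log2 fold change of 2.89, Adra2b of 2.04, Adra2c of 0.54 and Adra1a of -0.39. No receptor passed in edgeR, and 0 of all genes did (0.0%), nor did any in DESeq2 (0.0%), which gave no adjusted p for Chrm5. At an unadjusted p under 0.05, 3 receptors were higher on the KD, Chrm5, Adra2c and Adra2b, where 2.37% of all genes were. Only Adra1a was lower, where 1.19% of all genes were. CD males held at most 0.502 CPM of Chrm5 and 0.287 CPM of Adra2b, and both were kept for testing mainly through KD libraries. No conclusion is drawn from the values of Chrm5 and Adra2b. The median log2 fold change was 0.02 for the receptors and -0.00 for all genes. No receptor separated the KD from the CD males, while 0.102% of all genes did with the KD higher and 0.115% with the KD lower.

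**Figure D3:**
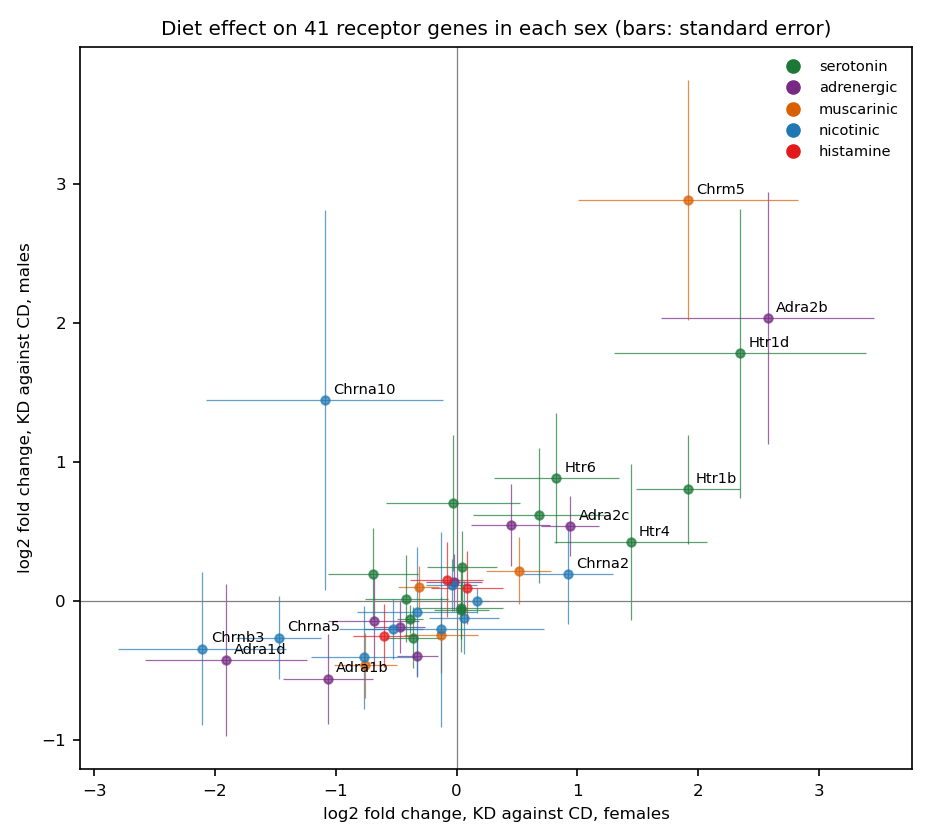
Log2 fold change of each of the 41 tested receptor genes, KD against CD, in females (horizontal) and males (vertical), coloured by family, with standard errors as bars. Adra2b, Htr1d, Chrm5, Htr1b and Adra2c lie at positive values in both sexes. Chrnb3, Adra1d and Chrna5 lie between -2.11 and -1.47 in females and between -0.42 and -0.26 in males. Adra2b and Chrm5 were kept for testing mainly through KD libraries.

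Htr1b encodes the Gi-coupled receptor that sits on axon terminals and limits transmitter release, and it lies on chromosome 9 from 81628291 to 81633828 (minus strand). It was at 1.05, 1.70, 0.819, 0.715 and 1.81 CPM in the CD females and 7.30, 4.31, 6.62 and 1.79 CPM in the KD females. All but E227 of the KD females were above every CD female. In males it was at 1.17, 1.79, 1.09, 1.44 and 1.84 CPM on the CD and at 1.43 to 6.17 CPM (median 1.98) on the KD, with E59 far above the other males. KD against CD, the log2 fold change was 1.91 (SE 0.43, edgeR adjusted p = 0.161) in females and 0.81 (SE 0.39, edgeR adjusted p = 1.0) in males. Averaged over the sexes it rose by 1.36 on the log2 scale (SE 0.29, edgeR adjusted p = 0.0783) and passed the threshold. With the striatum score as a covariate the averaged value was 0.65 (edgeR adjusted p = 0.596). Exons of Htr1b overlap those of D430036J16Rik on the opposite strand, and as the strand counted is not stated the reads of the pair cannot be told apart. D430036J16Rik was at 6.60, 7.37, 9.57 and 2.39 CPM in the KD females and 7.65 CPM in E59, and at most 4.01 CPM in the others.

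The other serotonin receptors differed in direction. Htr1d and Htr4 are given by library although they were chosen after their values were seen. Htr1d, another Gi-coupled terminal receptor, was at 0.190, 1.82, 4.67, 0.0794 and 0.283 CPM in the CD females and 12.4, 10.3, 11.8 and 0.359 CPM in the KD females, with E227 among the low CD values. For Htr1d the log2 fold change was 2.35 (SE 1.04, edgeR adjusted p = 0.396) in females and 1.78 (SE 1.04, edgeR adjusted p = 1.0) in males, where E59 stood at 7.80 CPM and the other KD males at no more than 1.19 CPM. Without E59 the value in males was 0.25 for Htr1d and 0.33 for Htr1b. Htr4, coupled to Gs, had log2 fold changes of 1.44 (SE 0.63, edgeR adjusted p = 0.390) in females and 0.43 (SE 0.56, edgeR adjusted p = 1.0) in males. In the KD females Htr4 was at 21.2, 29.3, 28.6 and 5.26 CPM, and CD female E249 had 22.5 CPM where the other CD females had 1.01 to 6.75 CPM. Among males KD male E64 had 16.2 CPM and no other more than 6.44 CPM, and without E64 the value in males was -0.12. Htr5a, whose receptor couples to Gi, was at 39.6, 38.7, 28.9, 36.8 and 34.98 CPM in CD females and 26.4, 28.2, 24.7 and 34.6 CPM in KD females. Only E249 of the CD females lay within the range of the KD females. CD males were at 37.5, 37.9, 36.5, 36.3 and 37.5 CPM and KD males at 30.7 to 39.6 CPM (median 34.2), which overlap. The diet effect on Htr5a was -0.39 (SE 0.11, edgeR adjusted p = 0.206) in females and -0.13 (SE 0.10, edgeR adjusted p = 1.0) in males. Of the 13 tested serotonin receptors, 8 had a positive log2 fold change in females and 9 in males, with medians of 0.04 and 0.25.

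Adra2c, the Gi-coupled alpha2C receptor, on chromosome 5 from 35278319 to 35281763 (plus strand), was at 12.6, 11.9, 13.3, 9.29 and 11.8 CPM in the CD females. KD females had 31.8, 24.0, 26.9 and 14.7 CPM, all above the CD females, with E227 lowest. CD males had 11.1, 13.8, 9.35, 12.9 and 11.2 CPM and KD males 10.96 to 28.6 CPM (median 13.3), where E59 and E64 stood at 28.6 and 25.7 CPM and the other 4 at no more than 14.2 CPM. The log2 fold change was 0.94 (SE 0.24, edgeR adjusted p = 0.190) in females and 0.54 (SE 0.22, edgeR adjusted p = 1.0) in males, where it was 0.37 without E59. Averaged over the sexes Adra2c rose by 0.74 on the log2 scale (SE 0.16, edgeR adjusted p = 0.0783), the second receptor past the threshold. Together they were 2 of 41, against 42 of all genes (0.268%) in this comparison. At an unadjusted p under 0.05 it had 9 receptors higher, where 7.41% of all genes were, and 10 lower, where 6.44% were.

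Both calls depended on the fit. Without the series term Adra2c had an edgeR adjusted p of 0.104, and with the requirement of 10 counts in every library Htr1b was left out. In series 2 alone Htr1b was at 1.02 and Adra2c at 0.42 (both edgeR adjusted p = 1.0), and 0 of all genes were called there (0.0%), and with the striatum score as a covariate Adra2c was at 0.41 (edgeR adjusted p = 0.496). With 1 mouse left out the averaged log2 fold change stayed between 1.14 and 1.496 for Htr1b and between 0.66 and 0.82 for Adra2c. Both were called without CD female E249, KD female E227 or KD male E53, E213 or E256. Over all genes those fits called 791, 668, 60, 49 and 72, in that order. The fits without E249 and E227 called 13 of 40 and 11 of 41 tested receptors. Without CD male E251 only Adra2c was called, among 29 of all genes. Without CD male E264 only Htr1b was called, among 27 of all genes. Neither was called without any of the other 13 mice, with adjusted p up to 0.247 for Htr1b and 0.255 for Adra2c (edgeR). These last fits called 2 to 15 of all genes.

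Adra2b, the third Gi-coupled alpha2 receptor, was far lower in level, at 0.143, 0.122, 1.97, 0.397 and 0.283 CPM in the CD females and 3.84, 4.78, 4.71 and 0.239 CPM in the KD females. E227 was within the CD range, and E249 was the highest CD female. CD males had 0.0867, 0.275, 0.161, 0.0628 and 0.287 CPM and KD males 0.0677 to 2.17 CPM (median 0.601), with E59 highest. The diet effect on Adra2b was 2.57 (SE 0.88, edgeR adjusted p = 0.259) in females and 2.04 (SE 0.91, edgeR adjusted p = 1.0) in males, where it was 1.23 without E59. Of the CD mice only E249 was above 0.397 CPM, so Adra2b was kept for testing mainly through KD libraries. The size of its diet effect is therefore uncertain, and no conclusion is drawn from it or from calls of Adra2b in any fit. Among the Gq-coupled alpha1 receptors, Adra1d had the plainest split, at 17.1, 14.3, 1.06, 10.8 and 15.5 CPM in CD females and 1.01, 0.948, 0.957 and 10.2 CPM in KD females. E249 was nearly as low as the 3 low KD females, and E227 was just below the lowest of the other CD females. In males Adra1d was at 18.1, 15.6, 12.5, 9.23 and 10.6 CPM on the CD and at 6.75 to 12.7 CPM (median 10.2) on the KD, all of them far above the low females. For Adra1d the log2 fold change was -1.91 (SE 0.67, edgeR adjusted p = 0.271) in females and -0.42 (SE 0.55, edgeR adjusted p = 1.0) in males.

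Adra1b was at 11.7, 13.3, 2.38, 5.96 and 14.8 CPM in CD females and 4.46, 4.48, 3.61 and 6.52 CPM in KD females. In males it was at 12.5, 16.7, 13.8, 5.40 and 6.26 CPM on the CD and 4.195 to 9.40 CPM (median 7.15) on the KD. The groups overlapped in both sexes, and the log2 fold change was -1.07 (SE 0.37, edgeR adjusted p = 0.266) in females and -0.56 (SE 0.32, edgeR adjusted p = 1.0) in males. In females the Adra1b value was -0.68 without CD female E228, which had 14.0 CPM of Ddx3y, and -1.44 without KD female E227. Adra1a, the receptor with the smallest p among those lower in KD males, was at 23.5, 21.6, 23.3, 15.0 and 18.4 CPM in CD males and at 12.7 to 16.9 CPM (median 16.4) in KD males. CD females had 22.0, 26.6, 26.1, 17.9 and 25.9 CPM and KD females 20.1, 21.7, 24.7 and 12.9 CPM, and only CD male E251 lay within the range of the KD males. Its log2 fold change was -0.39 (SE 0.15, edgeR adjusted p = 1.0) in males and -0.32 (SE 0.17, edgeR adjusted p = 0.502) in females. The beta receptor Adrb1 had log2 fold changes of -0.47 (SE 0.21, edgeR adjusted p = 0.400) in females and -0.18 (SE 0.19, edgeR adjusted p = 1.0) in males. Of the 9 adrenergic genes, 3 had a positive log2 fold change in females and 4 in males, with medians of -0.32 and -0.14.

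**Figure D4:**
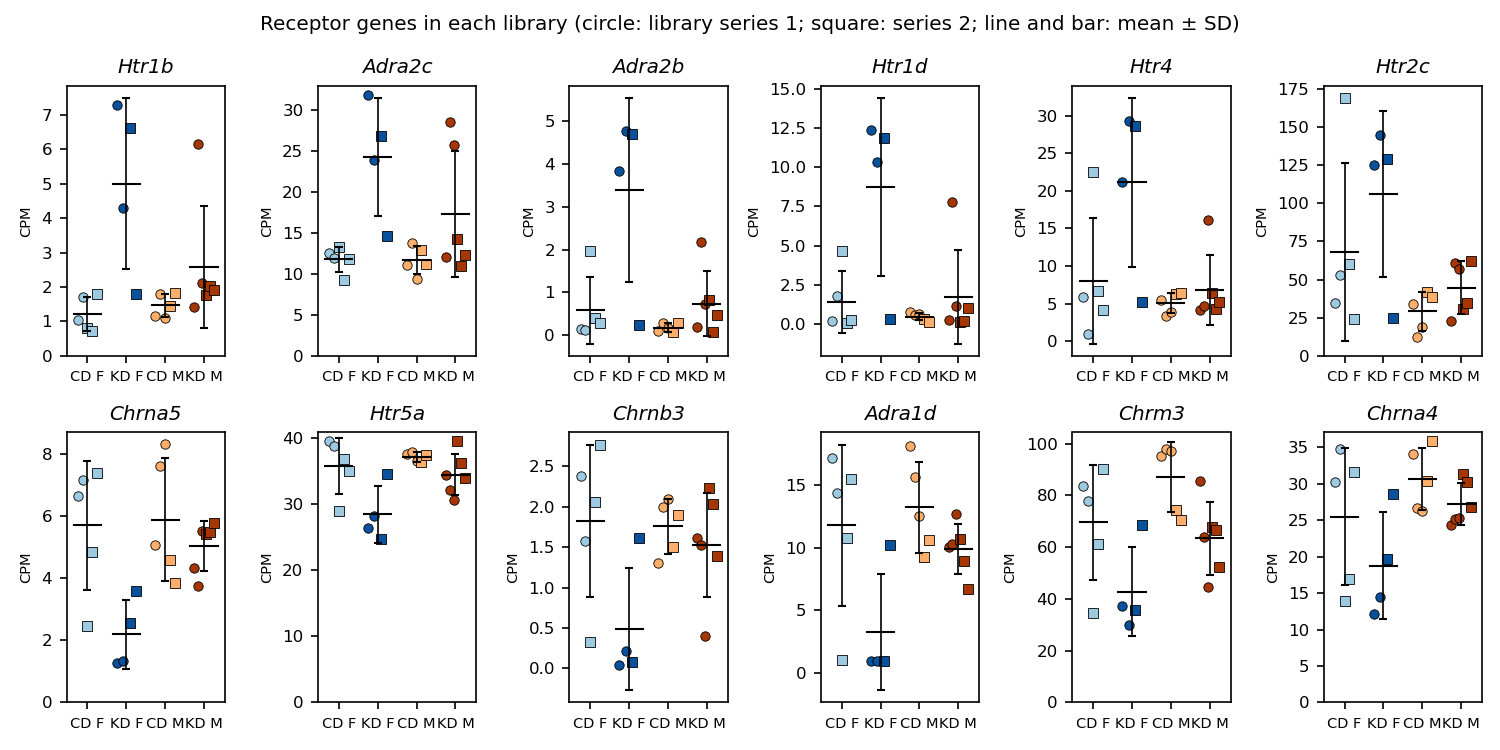
CPM of 12 receptor genes in every library, by diet and sex, with circles for library series 1, squares for series 2, and the mean ± SD of each group. In the upper row 3 KD females are high and E227 lies with or nearest to the CD females, and in the lower row the same 3 are low for Chrnb3 and Adra1d while CD female E249 lies beside them.

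Of the muscarinic receptors, Chrm5 and Chrm3 had the smallest p. Chrm5, a Gq-coupled receptor known from midbrain dopamine neurons, was at 0.286, 0.122, 1.56, 0.635 and 0.848 CPM in CD females and 4.74, 3.45, 1.77 and 0.718 CPM in KD females. CD males had 0.303, 0.240, 0.121, 0.502 and 0.287 CPM and KD males 0.343 to 7.24 CPM (median 0.593), with E64 at 7.24 and E254 at 3.55 CPM. KD males E59 and E256 lay within the CD range and the other 4 above it. The log2 fold change was 2.89 (SE 0.87, edgeR adjusted p = 1.0) in males and 1.91 (SE 0.91, edgeR adjusted p = 0.436) in females. Without E64 the value in males was 1.71. CD males held at most 0.502 CPM, and Chrm5 was kept for testing mainly through KD libraries. The size of its diet effect is therefore uncertain, and no conclusion is drawn from it. Chrm3, one of the most abundant of all 45, was at 83.7, 77.9, 34.6, 61.4 and 90.4 CPM in CD females and 37.3, 29.9, 35.8 and 68.4 CPM in KD females, where E249 lay with E61, E68 and E207 at most at 37.3 CPM. In males it was at 95.4, 98.0, 97.1, 74.5 and 70.6 CPM on the CD and 44.5 to 85.4 CPM (median 65.3) on the KD. The log2 fold change of Chrm3 was -0.76 (SE 0.26, edgeR adjusted p = 0.263) in females and -0.46 (SE 0.23, edgeR adjusted p = 1.0) in males.

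Chrm1, the main cortical muscarinic receptor, was at 95.4, 97.2, 56.9, 64.8 and 88.3 CPM in CD females and 74.3, 47.5, 69.6 and 77.9 CPM in KD females, which overlap. Males had 97.2, 79.3, 65.5, 69.7 and 90.3 CPM on the CD and 67.3 to 114 CPM (median 82.2) on the KD, and the log2 fold change was -0.31 (SE 0.17, edgeR adjusted p = 0.526) in females and 0.10 (SE 0.15, edgeR adjusted p = 1.0) in males. Chrm4 was at 35.02, 25.2, 12.4, 16.7 and 24.5 CPM in CD females and 42.4, 32.2, 38.4 and 23.8 CPM in KD females. In males it was at 46.0, 25.01, 25.7, 21.3 and 22.5 CPM on the CD and 15.8 to 56.5 CPM (median 32.5) on the KD. E59 had the highest Chrm4 value of all 20 libraries and E249 the lowest. The Chrm4 log2 fold change was 0.51 (SE 0.27, edgeR adjusted p = 0.494) in females and 0.22 (SE 0.24, edgeR adjusted p = 1.0) in males, and Chrm2 was at -0.13 and -0.24. The 5 muscarinic genes had median log2 fold changes of -0.13 in females and 0.10 in males.

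The nicotinic subunit with the smallest p was Chrna5, an accessory subunit that joins Chrna4 and Chrnb2 and is known from deep cortical layers. It lies on chromosome 9 from 54980880 to 55007779, next to Chrna3 and Chrnb4. CD females had 6.66, 7.17, 2.46, 4.84 and 7.40 CPM and KD females 1.28, 1.34, 2.58 and 3.59 CPM, overlapping only through E249, which was below E207 and E227. CD males had 5.07, 7.63, 8.34, 4.58 and 3.85 CPM and KD males 3.77 to 5.78 CPM (median 5.45), which overlap. The log2 fold change was -1.47 (SE 0.35, edgeR adjusted p = 0.185) in females and -0.26 (SE 0.30, edgeR adjusted p = 1.0) in males. The difference between the sexes was -1.21 (SE 0.46, edgeR adjusted p = 1.0), the receptor of smallest p for the interaction. Chrnb3, an accessory subunit at 2.38, 1.58, 0.328, 2.06 and 2.77 CPM in CD females and 0.0388, 0.215, 0.0736 and 1.61 CPM in KD females, had E249 low beside E61, E68 and E207 and E227 within the range of the other CD females. In males it was at 1.30, 1.99, 2.10, 1.51 and 1.90 CPM on the CD and 0.396 to 2.24 CPM (median 1.57) on the KD, with E64 lowest. Chrnb3 had log2 fold changes of -2.11 (SE 0.70, edgeR adjusted p = 0.242) in females and -0.34 (SE 0.55, edgeR adjusted p = 1.0) in males.

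Chrna4 was at 30.2, 34.7, 13.8, 16.9 and 31.6 CPM in CD females and 12.2, 14.4, 19.7 and 28.6 CPM in KD females. Males had 34.0, 26.7, 26.3, 30.4 and 35.8 CPM on the CD and 24.4 to 31.3 CPM (median 26.0) on the KD, so that the 5 lowest values were all in females. Its log2 fold change was -0.52 (SE 0.24, edgeR adjusted p = 0.424) in females and -0.20 (SE 0.22, edgeR adjusted p = 1.0) in males. Its partner Chrnb2 was steadier, at 67.9, 54.9, 64.6, 45.5 and 57.7 CPM in CD females, 80.5, 64.3, 69.5 and 61.6 CPM in KD females and 70.1, 63.5, 60.8, 56.1 and 58.8 CPM in CD males. KD males had 53.3 to 77.8 CPM (median 61.2), and the log2 fold change was 0.17 (SE 0.10, edgeR adjusted p = 0.551) in females and 0.01 (SE 0.09, edgeR adjusted p = 1.0) in males. Exons of Chrnb2 overlap those of Adar on the other strand. Chrna7 was at -0.04 on the log2 scale in females (95% confidence interval -0.48 to 0.39) and 0.12 in males (-0.27 to 0.51). In the family 8 of 11 tested genes had a negative log2 fold change in females and 7 in males, with medians of -0.33 and -0.12. By coupling, the channel subunits, Htr3a included, had a median of -0.43 in females and the Gi receptors of 0.27, with 9 of 12 negative in the first and 8 of 12 positive in the second. In males these medians were -0.10 and 0.39. The Gq receptors had medians of -0.32 and -0.01 and the Gs receptors of -0.03 and -0.06 in females and males.

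Hrh1 was at 29.3, 23.2, 9.42, 17.6 and 20.96 CPM in CD females, 24.1, 12.7, 15.1 and 27.6 CPM in KD females and 33.2, 21.4, 21.001, 28.6 and 27.1 CPM in CD males. KD males had 14.2 to 42.7 CPM (median 28.1), and all groups overlapped. Its diet effect was -0.08 (SE 0.30, edgeR adjusted p = 0.967) in females and 0.16 (SE 0.27, edgeR adjusted p = 1.0) in males. Hrh3 was at 0.09 in females (-0.53 to 0.70) and 0.10 in males (-0.45 to 0.65), both 95% confidence intervals including 0. Hrh2 had -0.60 (SE 0.26, edgeR adjusted p = 0.380) in females and -0.25 (SE 0.23, edgeR adjusted p = 1.0) in males.

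The interaction, the diet effect in females minus that in males, tests whether the sexes differed in their response. No receptor and 0 of all genes passed in edgeR (0.0%), and DESeq2 called no receptor and 1 gene (0.00642%). At an unadjusted p under 0.05, no receptor was higher, where 1.09% of all genes were, and 1 was lower, Chrna5, where 1.05% were. After it came Chrnb3 at -1.77 (SE 0.88, edgeR adjusted p = 1.0), Htr1b at 1.11 (SE 0.58, edgeR adjusted p = 1.0) and Chrm1 at -0.42 (SE 0.23, edgeR adjusted p = 1.0). The Chrnb3 interaction was -3.70 without E227, and that of Chrm1 turned to 0.051 in series 2 alone. Chrna2 and Chrnb2, the next positive values by p, were at 0.73 (SE 0.52, edgeR adjusted p = 1.0) and 0.17 (SE 0.13, edgeR adjusted p = 1.0), and that of Chrna2 turned to -0.45 in series 2 alone. The median over the 41 was -0.16 beside 0.01 for all genes, and 26 of the 41 were negative. Without KD female E227, Adra1d was called at an interaction of -3.41 (edgeR adjusted p = 0.0474), among 41 of all genes (0.257%), and with all mice it was at -1.49 (SE 0.85, edgeR adjusted p = 1.0).

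Females were also compared with males over both diets. No receptor passed the threshold in edgeR, against 21 of all genes (0.134%). DESeq2 called 4, Adra2b, Chrna10, Chrna2 and Htr2c, among 212 of all genes (1.36%). The limit given above for Adra2b applies to its call. At an unadjusted p under 0.05, 8 receptors were higher in females, where 8.59% of all genes were, and 7 lower, where 4.96% were. Chrna2, a nicotinic subunit known from a class of cortical interneurons, was at 1.05, 0.851, 1.88, 0.953 and 0.735 CPM in CD females, 3.49, 2.37, 1.91 and 0.897 CPM in KD females and 0.954, 0.824, 0.564, 0.628 and 0.517 CPM in CD males. KD males had 0.406 to 1.36 CPM (median 0.798), and the female minus male difference was 1.03 (SE 0.25, edgeR adjusted p = 0.140). Chrna10, known from hair cells of the inner ear, was at 0.0476, 1.34, 2.13, 0 and 0.396 CPM in CD females and 0.427, 0.905, 0.368 and 0 CPM in KD females. In CD males it was at 0.0433, 0.0344, 0.0403, 0.0628 and 0.0575 CPM and in KD males at 0 to 0.576 CPM (median 0.0301). All males but E64 were at or below 0.0761 CPM and the female groups overlapped, and the exons of Chrna10 overlap those of Art1. The Chrna10 difference was 2.91 (SE 0.81, edgeR adjusted p = 0.168). Chrna10 had 128 counts in all and was at 0 in 5 libraries, so it was kept for testing mainly through female libraries. The size of its difference is therefore uncertain, and no conclusion is drawn from it or from the DESeq2 call of Chrna10.

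Htr2c, on the X chromosome from 146962513 to 147197277 (plus strand), is a Gq-coupled receptor known for its very high level in choroid plexus. It was at 34.5, 52.7, 169, 60.4 and 24.0 CPM in CD females and 125, 145, 129 and 25.1 CPM in KD females. CD males had 34.2, 12.6, 18.9, 41.9 and 38.7 CPM and KD males 22.6 to 61.97 CPM (median 45.8), so that the 4 highest of the 20 were E249, E68, E207 and E61. KD male E59, with choroid plexus markers of 2444 CPM, was at 60.5 CPM. The female minus male difference was 1.21 (SE 0.36, edgeR adjusted p = 0.184), and it was 0.90 without E249. Of the lower receptors Chrna5 had a difference of -0.66 (SE 0.23, edgeR adjusted p = 0.246), Chrna4 of -0.43 (SE 0.16, edgeR adjusted p = 0.273) and Chrm3 of -0.45 (SE 0.18, edgeR adjusted p = 0.282). The same 4 females had the lowest Chrm3 values of all 20 libraries. Without KD female E227, 12 receptors were called in this comparison, among 813 of all genes (5.1%). Without KD male E59 Chrna2 and Htr1d were, among 204 (1.32%), and without CD female E62 only Chrna10 was, among 87 of all genes. The limit given above for Chrna10 applies to its calls in these fits too, and no conclusion is drawn from them.

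Receptor levels were also summed per family. The serotonin sum was 44.5 ± 10.3 CPM per kilobase in CD females (SD, n = 5), 51.6 ± 9.76 in KD females (n = 4), 35.7 ± 2.07 in CD males (n = 5) and 39.3 ± 6.45 in KD males (n = 6). The nicotinic sum was 20.6 ± 2.75, 19.4 ± 1.501, 21.4 ± 1.06 and 20.7 ± 1.26 CPM per kilobase in the same order. Adrenergic sums were 23.9 ± 4.90, 21.05 ± 1.42, 25.2 ± 3.62 and 23.6 ± 3.69, and muscarinic sums 43.1 ± 10.7, 45.7 ± 5.51, 49.1 ± 9.40 and 50.1 ± 12.6 CPM per kilobase. Histamine receptor sums were 9.50 ± 3.33, 9.62 ± 2.34, 11.6 ± 2.12 and 12.5 ± 2.59 CPM per kilobase. Within every family the KD and CD ranges overlapped in each sex.

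The genes that supply the transmitters were read beside their receptors. Of 8 genes of serotonin supply, 5 were tested, and only Ddc, which makes serotonin and dopamine from their precursors, had an unadjusted p under 0.05 in females, at 0.86 (SE 0.28, edgeR adjusted p = 0.241). Maoa, which degrades serotonin, was the most abundant at 75.2 CPM and had -0.03 (SE 0.16, edgeR adjusted p = 0.974). Tph1, Slc6a4 and Fev, which mark cells that make or take up serotonin, were at 0 in some libraries, Fev in 16 of 20. Of 5 genes of noradrenaline supply 2 were tested, with 0 at an unadjusted p under 0.05 in either sex, and Th, which makes the precursor of dopamine and noradrenaline, had 0.22 (SE 0.70, edgeR adjusted p = 0.960) in females. Dbh, Pnmt and Slc6a2 were at 0 in some libraries. Both histamine genes, Hdc and the more abundant Hnmt, were tested, and Hnmt had -0.13 (SE 0.17, edgeR adjusted p = 0.861).

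All 5 genes of acetylcholine supply had a positive log2 fold change in females, 2 at an unadjusted p under 0.05, and 4 of 5 in males with 0 at that level. Their summed level was 31.4, 34.5, 130.1, 26.8 and 35.03 CPM in CD females and 161, 189.9, 141 and 33.7 CPM in KD females, high in E249, E61, E68 and E207. Males had 33.0, 36.4, 34.7, 32.1 and 27.0 CPM on the CD and 28.8 to 82.3 CPM (median 37.1) on the KD, with E59 highest. Ache, which degrades acetylcholine, had the smallest p at 0.84 (SE 0.22, edgeR adjusted p = 0.194), and Bche, the most abundant, had 0.36 (SE 0.33, edgeR adjusted p = 0.773). Of the 8 nicotinic accessory genes, 5 had a positive log2 fold change in females and 3 in males. Lypd1, an inhibitor bound to nicotinic receptors, had 0.98 (SE 0.43, edgeR adjusted p = 0.384) in females and 0.85 (SE 0.38, edgeR adjusted p = 1.0) in males. Ly6e had -0.43 (SE 0.21, edgeR adjusted p = 0.437), the other with an unadjusted p under 0.05 in females. Lynx1, an inhibitor and the most abundant, had -0.33 (SE 0.26, edgeR adjusted p = 0.725).

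The dopamine receptors, which belong to the same class of receptors, were all positive in females, 4 of the 4 tested, with 3 at an unadjusted p under 0.05. They summed to 17.6, 27.4, 144, 16.4 and 27.8 CPM in CD females and 297, 286, 356 and 32.0 CPM in KD females. Drd1a, the most abundant and also a striatum marker, had 2.09 (SE 0.87, edgeR adjusted p = 0.364). The receptor kinases and arrestins, which switch off activated receptors, showed 0 of 7 at an unadjusted p under 0.05 in either sex. Arrb1, the most abundant at 423 CPM, had 0.03 (SE 0.10, edgeR adjusted p = 0.964) and Adrbk2, of the smallest p, -0.32 (SE 0.18, edgeR adjusted p = 0.544). No gene of these lists passed the threshold in either sex.

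The comparison of females rested strongly on single libraries. Without CD female E249, 14 of 40 tested receptors were called, where 1046 of all genes were (6.66%). Without KD female E227, 13 of 41 were, where 906 of all genes were (5.68%). In both fits 12 were called: Adra1b, Adra1d, Adra2b, Adra2c, Adrb1, Chrm3, Chrna2, Chrna4, Chrna5, Chrnb3, Htr1b and Htr4. The limit given above for Adra2b applies to its calls in these fits. Without KD male E59 1 was called, Htr1b, among 38 of all genes (0.245%), and without any of the other 17 mice none was. Without E227 the log2 fold change was -3.97 for Chrnb3 and -3.78 for Adra1d. Adra2b was at 3.83 and Htr1d at 4.04 without E249. At the other end of these ranges, Chrnb3 was at -1.67 and Adra1d at -1.51 without E61. Adra2b was then at 2.12 without E67, and Htr1d at 1.30 without E207. Within series 1, where E61 and E68 were the KD females, 9 receptors and 865 of all genes (5.42%) were called, and within series 2, where E207 and E227 were, 0 of either (0.0%). Between the first and the second the log2 fold change of Chrna4 turned from -1.33 to 0.15, and the other 15 of the 16 receptors kept their direction with a smaller size in the second. Of the higher ones, Htr1b went from 2.02 to 1.81, Adra2c from 1.14 to 0.79, Adra2b from 4.95 to 1.45, Htr1d from 3.41 to 1.84, Htr4 from 2.86 to 0.55, Chrna2 from 1.58 to 0.18 and Chrm5 from 4.28 to 0.22. Of the lower ones, Chrna5 went from -2.44 to -0.74, Chrnb3 from -3.97 to -1.07, Chrm3 from -1.31 to -0.33, Adra1b from -1.52 to -0.68, Adra1d from -4.04 to -0.78, Htr5a from -0.56 to -0.25, Hrh2 from -0.94 to -0.30 and Adrb1 from -0.85 to -0.15. With the striatum score as a covariate 0 receptors and 0 of all genes (0.0%) were called. Of the 7 receptors higher in females Htr1b was at 0.82, Adra2c at 0.41, Adra2b at 0.54, Chrna2 at 0.32, Htr4 at 0.52, Chrm5 at 1.43 and Htr1d at -0.25 in that fit. Of the 9 lower Chrna5 was at -1.04, Htr5a at -0.20, Chrnb3 at -1.49, Chrm3 at -0.38, Adra1b at -0.81, Adra1d at -1.12, Hrh2 at -0.38, Chrna4 at -0.17 and Adrb1 at 0.04. Htr1d and Adrb1 thus changed sign. At an unadjusted p under 0.05, 3 receptors were higher, where 2.52% of all genes were, and 3 lower, where 2.43% were. Leaving out CD female E228, which had 14.0 CPM of Ddx3y, gave 4 higher (5.81% of all genes) and 6 lower (5.16%), with none called (0.0254% of all genes).

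**Figure D5:**
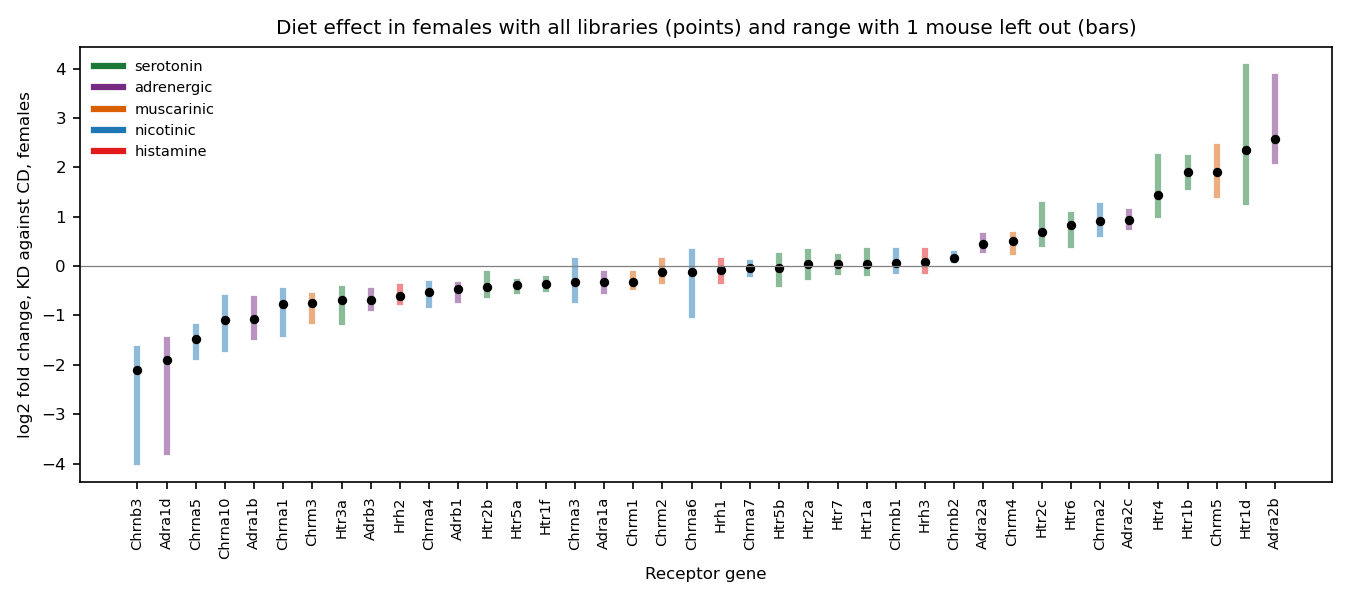
Log2 fold change of 40 tested receptor genes, KD against CD, in females, with all libraries (points) and the range over the fits with 1 mouse left out (bars; 20 fits, but 17 for Chrna10 and 11 for Htr6, which had too few counts in the others), coloured by family. The direction holds for Adra2b, Htr1d, Htr1b, Adra2c, Chrna5, Adra1d and Chrnb3. The value reaches -3.78 for Adra1d and -3.97 for Chrnb3 when E227 is left out. Adra2b was kept for testing mainly through KD libraries.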

How the data were processed

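Frozen brain cortex of 20 mice was sequenced as stranded total RNA (50-bp paired-end reads). The authors aligned reads with STAR to mm10 and deposited raw counts per gene, 1 table per mouse, and the strand counted, the tool versions and the annotation are not given in the sources used here. Members were matched by symbol. Members and gene lists were chosen with earlier results of these data known. Counts were tested with edgeR 4.0.16 (R 4.3.3, limma 3.58.1; quasi-likelihood, robust, upper quartile scaling, filterByExpr, which kept 15660 of 23413 genes), with group and library series as terms, 5 contrasts, Benjamini-Hochberg adjustment over all tested genes and calls at FDR 0.1 and a 1.5-fold change. The code was tested on simulated data. CPM is a count scaled to a library total of 1000000, and lengths and coordinates are from a GRCm38 annotation. Members were named, though some genes are not reported here, and values by library were given for the 3 members of smallest p in each direction of each contrast but the averaged diet effect, and the highest per kilobase of each family. Alternatives were TMM and RLE scaling, other filters, no series term, RUVg, DESeq2 1.42.0, each sex or series alone, a striatum covariate and each mouse left out. Mice have their own identifiers, so p-values set differences between groups against the variation between mice. Intervals are 95% confidence intervals of the log2 fold change.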

Additional observations from a re-analysis of the deposited data

Results flagged for a closer look

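In 19 receptor genes, those named by their p or by their level per kilobase, 76 groups of 4 to 6 mice were checked. The check looked for a highest or lowest mouse far from the others, by Dixon's ratio. Htr1d and Htr4, which are also given by library, were not among these genes and were not checked. This found 10, beside 3.8 at 1 in 20. The checks reuse the same 20 mice in each gene and are not independent, so no excess over chance is read from this. CD female E249 was the highest of its group for Adra2b (1.97 CPM), Chrna2 (1.88 CPM) and Htr2c (169 CPM). KD female E227 was the highest of its group for Adra1d (10.2 CPM) and Chrnb3 (1.61 CPM) and the lowest for Htr2c (25.1 CPM). KD male E59 was the highest of its group for Adra2b (2.17 CPM) and Htr1b (6.17 CPM), KD male E64 for Chrna10 (0.576 CPM) and CD male E51 for Chrm4 (46.0 CPM).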

How the results depend on the processing

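In females the 7 genes called became 12 with no filter, 4 with no series term, 34 and 267 with 1 and 2 RUVg factors, 253 with DESeq2, 1 with each sex alone, 865 in series 1, 0 in series 2 and 0 with the striatum covariate. The receptors called, 0, became 1, 6, 4 and 9 with 1 and 2 RUVg factors, DESeq2 and series 1. The 7 higher at an unadjusted p under 0.05 became 2 with at least 10 counts in every library, 2 in series 2 and 3 with the covariate, and the 9 lower became 1 in series 2 and 3 with the covariate. With at least 10 counts in every library 29 receptors were tested instead of 41. All genes at that level, both directions together, went from 1780 to 1487 with that filter, 418 in series 2 and 776 with the covariate. In males the 3 higher became 1 with at least 10 counts, 5 in series 1 and 0 in series 2, and the 1 lower became 2 and 3 with RUVg, 5 with each sex alone, 5 in series 1 and 0 in series 2. Over all genes the number at that level, both directions together, went from 557 to 426 with at least 10 counts and 816 and 1143 with RUVg. It was 686 with each sex alone, 970 in series 1 and 48 in series 2. For the interaction the 0 genes called became 1 with DESeq2 and 14 in series 1, receptors called 1 in series 1, the 0 higher 1 in series 1, and the 1 lower 2 and 4 with RUVg, 2 with DESeq2 and 6 in series 1. All genes at that level, in either direction, went from 335 to 528 and 782 with RUVg, 376 with DESeq2 and 1264 in series 1. Averaged over the sexes the 42 genes called became 157 and 352 with RUVg, 351 with DESeq2, 886 in series 1, 0 in series 2 and 0 with the covariate. The 2 receptors called became 1 with at least 10 counts, 1 with no series term, 7 and 8 with RUVg, 7 with DESeq2, 12 in series 1, 0 in series 2 and 0 with the covariate. The 9 higher became 3 with at least 10 counts and 2 in series 2, and the 10 lower 0 in series 2 and 5 with the covariate. Genes at that level in either direction went from 2169 to 1801 with at least 10 counts, 200 in series 2 and 1212 with the covariate. For females against males the 21 genes called became 4 with at least 10 counts, 9 and 11 with RUVg, 212 with DESeq2, 76 in series 1 and 5 in series 2, receptors called 4 with DESeq2 and 1 in series 1, the 8 higher 4 with at least 10 counts, 4 with 2 RUVg factors, 3 in series 1 and 3 with the covariate, and the 7 lower 3 in series 2 and 1 with the covariate. Genes at that level in either direction went from 2122 to 1749 with at least 10 counts and 1880 with 2 RUVg factors. They numbered 1836 in series 1, 544 in series 2 and 661 with the covariate.

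With 1 mouse left out, genes called ranged from 0 to 1046 in females, 0 to 0 in males, 0 to 41 for the interaction, 2 to 791 averaged and 8 to 813 for females against males. Receptors called ranged from 0 to 14, 0 to 0, 0 to 1, 0 to 13 and 0 to 12 in that order, receptors higher from 3 to 9, 1 to 5, 0 to 2, 5 to 10 and 5 to 11, and receptors lower from 6 to 12, 0 to 3, 1 to 7, 7 to 11 and 3 to 11. All genes at an unadjusted p under 0.05 ranged from 1000 to 2939, 234 to 795, 188 to 1103, 1518 to 3191 and 1299 to 3808 in the same order. The interaction of Chrna2 (0.73) was -0.45 in series 2 alone and that of Chrm1 (-0.42) was 0.051. The cause of these differences was not tested. No paired analysis was possible because the mice of different groups share no replicate numbers. Low counts limit Adra2b, Chrm5, Chrna3, Chrna6, Chrna10, Chrnb3, Htr1d and Htr6, each tested with at most 3 counts in the lowest library. Adra2b and Chrm5 were kept for testing mainly through KD libraries, and no conclusion is drawn from their diet effects or calls.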
